A study of Macaca mulatta with 4 samples.

Results

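Iron handling in RF/6A cells was described through 10 transcripts: the ferritin subunits FTH1 and FTL, the uptake genes TFRC, SLC11A2 and STEAP3, the exporter SLC40A1, the regulators ACO1 and IREB2, the ferritin receptor NCOA4 and the haem oxygenase HMOX1. They were taken by symbol from the table of rhesus gene counts, and all 10 had a row among its 21314 rows. The set was chosen by measured levels as well as by role, since the high FTH1 counts in these libraries were known, so the levels are given as descriptions. Dixon's test, run on every gene, is used only to say where 1 library lay apart, and its calls support nothing about the choice of genes. RF/6A is a rhesus macaque (Macaca mulatta) line bought from a cell repository as 1 lot and labelled as chorioretinal cells. It was grown in Dulbecco's medium with heat-inactivated fetal bovine serum, penicillin and streptomycin. The series holds 1 group of 4 RNA-seq libraries (libraries 1 to 4) of this line, all titled static, with no treated or control group. Whether the libraries represent separate cultures is not stated, so every SD is the spread between these samples, which may be technical.

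Most cells take up iron bound to transferrin through the transferrin receptor, encoded by TFRC. In the endosome the reductase STEAP3 reduces the iron and SLC11A2, also known as DMT1, carries it to the cytosol. Iron not in use is stored in ferritin, a shell of heavy (FTH1) and light (FTL) subunits, from which NCOA4 releases it by taking ferritin to the lysosome, and SLC40A1 (ferroportin) exports iron from the cell. The iron regulatory proteins ACO1 and IREB2 bind iron-responsive elements in transcripts such as those of ferritin and TFRC when iron is low. That binding blocks the translation of ferritin and stabilises the TFRC transcript, so a ferritin transcript level is not a protein level. These roles are known mainly from human and mouse cells.

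Each library held between 20366946 and 20550610 estimated counts, in 15561 to 16265 rows with a count. Levels are CPM values (a gene's counts relative to the library total) scaled between libraries by the trimmed mean of M-values (TMM). They are not divided by transcript length, so levels of different genes were not ranked against each other. Library 2 stood apart from the other 3. The biological coefficient of variation that edgeR estimated across genes was 45.2% with it and 13.6% without it, and ribosomal protein genes took 16.1% of its counts against 6.47% to 7.11%. Because of this, each level is given per library. Of the marker lists, all 5 fibroblast and mesenchymal genes reached 1 CPM in every library, against 1 of 5 endothelial genes and 2 of 5 retinal pigment epithelium genes, where TYR had no count. In the macrophage list 1 of 6 genes did (CD68), in the erythroid list 1 of 4 (EPOR) and in the hepatocyte list 0 of 5. MRC1 and MARCO of the macrophage list, the erythroid gene ALAS2 and the hepatocyte gene SERPINA1 had no count in any library. CD163, also of the macrophage list, measured 1.11 CPM in library 2 and 0.0449 to 0.136 CPM in the others. PTPRC measured 0.135 to 0.185 CPM. The summed levels were 5.66 to 10.4 CPM for macrophage, 4.75 to 9.87 CPM for erythroid and 0.904 to 2.16 CPM for hepatocyte markers, each highest in library 2. Most of the macrophage sum was CD68 and most of the erythroid sum EPOR, at 9.07 and 9.56 CPM in library 2. Most of the hepatocyte sum was ALB, at 1.67 CPM there. SLC4A1 of the erythroid list was lowest there, at 0.0617 CPM against 0.181 to 0.404 CPM. Summed fibroblast and mesenchymal markers were also highest there, at 42453 CPM against 26532 to 29283 CPM, but the genes of that list were split. COL1A1, COL1A2 and VIM were highest in library 2. COL3A1 was lowest there, at 5303 CPM against 5529 to 5932 CPM, and so was PDGFRB, at 185 CPM against 310 to 334 CPM. The endothelial sum was lowest in library 2, at 3.95 CPM against 5.34 to 6.47 CPM. Within that list KDR and TEK were lowest there, but CDH5 was highest, at 1.05 CPM against 0.364 to 0.497 CPM. The retinal pigment epithelium sum was also lowest in library 2, at 3.39 CPM against 18.4 to 35.3 CPM. The largest part of it was BEST1, at 1.48 CPM in library 2 against 15.1 to 29.8 CPM. MITF was lowest there too, but RPE65, at 1.23 CPM, lay within the range of the others. RLBP1 was highest there, at 0.0617 CPM. Whether these marker levels have a part in the iron gene levels was not tested. In bulk RNA, fewer cells of a type and less RNA per cell cannot be told apart.

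Both ferritin transcripts were far higher in library 2 than in the other libraries. FTH1 (ENSMMUG00000015146), the subunit that oxidises ferrous iron for storage, measured 6429 CPM in library 1, 21609 CPM in library 2, 6280 CPM in library 3 and 6692 CPM in library 4. Library 2 was high and the other 3 lay close together, at 6467 ± 209 CPM (SD, n = 3) without it and 10252 ± 7573 CPM (SD, n = 4) with it. FTH1 held the largest count of any row in library 2, where EEF1A1 held that place in the others. FTL (ENSMMUG00000003909), the subunit that helps form the mineral core, measured 641.7, 2315, 604 and 718 CPM in libraries 1 to 4. It was 655 ± 58.4 CPM (SD, n = 3) without library 2 and 1070 ± 831 CPM (SD, n = 4) with it, and library 2 was again the high one.

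Together the ferritin subunits took 0.763%, 1.898%, 0.747% and 0.797% of the counts of libraries 1 to 4. The exact 95% binomial limits were 1.892% to 1.904% in library 2, and those of the other 3 libraries lay between 0.743% and 0.801%. These limits cover counting error only. The share in library 2 lay far outside that of the other 3, at 0.769 ± 0.0256% (SD, n = 3).

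The balance between the subunits hardly moved. FTH1 counts were 10.02, 9.34, 10.4 and 9.31 times those of FTL in libraries 1 to 4, a log2 ratio of 3.29 ± 0.08 (SD, n = 4). The ratio depends on transcript lengths in its size but not in its variation between libraries, which came to 1.12-fold between the lowest and the highest. Libraries 2 and 4 had nearly the same ratio, 9.34 and 9.31, at FTH1 levels of 21609 and 6692 CPM. Ferritin genes have many processed copies in primate genomes, and salmon shares reads among similar transcripts. No other row carried a ferritin name, and 6660 rows carried no symbol, so an assignment error between copies was not tested.

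NCOA4 (ENSMMUG00000015182), which delivers ferritin to lysosomes for iron release, went the other way in library 2. It measured 176 CPM in library 1, 79.5 CPM in library 2, 171 CPM in library 3 and 168 CPM in library 4. Libraries 1, 3 and 4 were tight, at 172 ± 4.11 CPM (SD, n = 3), and library 2 lay below all of them.

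**Figure D1:**
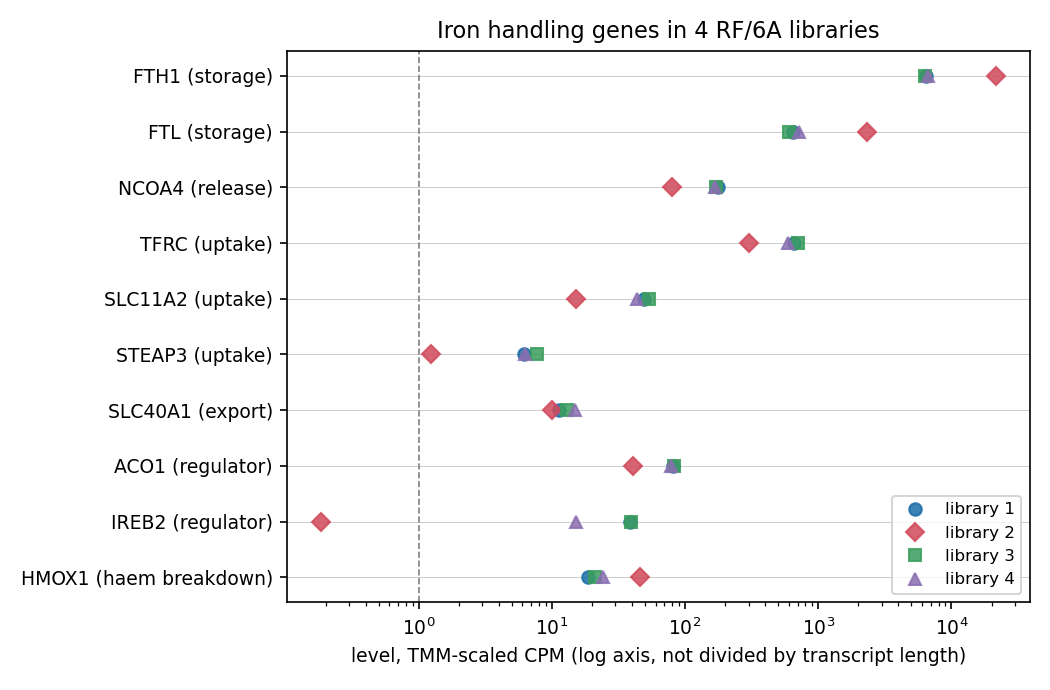
Levels of the 10 iron handling genes in TMM-scaled CPM on a log axis, with 1 point per library and a dashed line at 1 CPM. FTH1, FTL and HMOX1 were highest in library 2 (21609, 2315 and 45.5 CPM), and the other 7 genes were lowest there.

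The uptake genes were all lowest in library 2. TFRC (ENSMMUG00000002114), the transferrin receptor, measured 658, 304, 700.3 and 596 CPM in libraries 1 to 4, or 652 ± 52.3 CPM (SD, n = 3) without library 2. SLC11A2 (ENSMMUG00000022961), the endosomal iron transporter, measured 49.3, 15.1, 53.6 and 43.5 CPM, or 48.8 ± 5.11 CPM (SD, n = 3) without library 2. STEAP3 (ENSMMUG00000039972), the endosomal ferrireductase first described in red cell precursors, measured 6.19, 1.23, 7.68 and 6.24 CPM. Library 2 lay below the range of the other 3 for each of these genes, and among libraries 1, 3 and 4 the highest level was 1.17 to 1.23 times the lowest on CPM + 0.5. The STEAP3 value in library 2 rests on 20 counts, and it was 0.979 CPM there with plain CPM, below the 1 CPM line.

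The ratio of the uptake receptor to the storage subunit set library 2 apart. FTH1 counts were 9.77 times those of TFRC in library 1, 8.97 times in library 3 and 11.2 times in library 4, but 71.1 times in library 2. On the log2 scale the TFRC to FTH1 ratio was -3.31 ± 0.16 (SD, n = 3) in libraries 1, 3 and 4 and -6.15 in library 2. This ratio within a library does not depend on how libraries are scaled against each other.

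SLC40A1 (ENSMMUG00000003506), the exporter, varied least of the 10 genes over all 4 libraries with TMM scaling. It measured 11.4, 9.99, 13.03 and 14.8 CPM in libraries 1 to 4, or 12.3 ± 2.07 CPM (SD, n = 4), a coefficient of variation of 16.9%. Library 2 was the lowest, but its gap to library 1 was smaller than the gaps among the other libraries. That changed with plain CPM, where SLC40A1 measured 12.3, 7.93, 14.1 and 15.9 CPM and the gap between libraries 2 and 1 was the largest. HMOX1 then varied least relative to its mean, at 26.3 ± 6.98 CPM (SD, n = 4), against 12.6 ± 3.43 CPM for SLC40A1.

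The paired iron sensors behaved differently from each other. ACO1 (ENSMMUG00000008196), an enzyme that works as cytosolic aconitase when it holds an iron-sulphur cluster and as a regulatory protein without it, measured 80.7, 40.7, 82.4 and 78.5 CPM. Libraries 1, 3 and 4 lay at 80.5 ± 1.95 CPM (SD, n = 3) and library 2 below them. IREB2 (ENSMMUG00000045680), the regulator that is degraded when iron is ample, measured 38.3, 0.185, 39.4 and 15.1 CPM in libraries 1 to 4.

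IREB2 was the most variable gene of the set, with a coefficient of variation of 81.8% over 4 libraries and 44.4% over libraries 1, 3 and 4. Its counts were 842, 3, 877 and 334, so library 2 was near 0 and library 4 lay well below libraries 1 and 3. The exact 95% Poisson limits of the 3 counts in library 2 were 0.0382 to 0.541 CPM, and library 4 was 81.6 times higher, with a counting interval of 27.7 to 398. Library 1 was 2.54 times library 4, with a counting interval of 2.23 to 2.89. These intervals cover counting error only, and an assignment error in the IREB2 counts was not tested. Over libraries 1, 3 and 4 the highest level of IREB2 was 2.56 times the lowest on CPM + 0.5, a spread that 1.87% of 12453 genes reached, all of them averaging 1 CPM or more. That comparison was chosen after its values were seen.

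The ratio of the sensors varied with IREB2. ACO1 counts were 2.11, 220, 2.09 and 5.2 times those of IREB2 in libraries 1 to 4. The value in library 2 rests on the 3 IREB2 counts. Libraries 1 and 3 were nearly equal, and libraries 4 and 2 stepped away from them in the same direction.

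**Figure D2:**
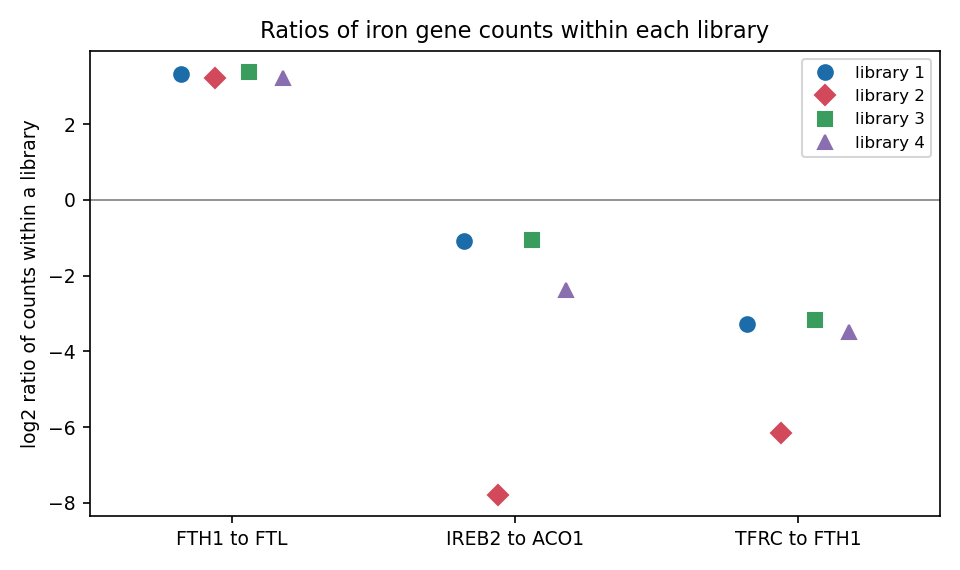
Log2 ratios of counts within each library for FTH1 to FTL, IREB2 to ACO1 and TFRC to FTH1, with 1 point per library. The FTH1 to FTL ratio stays between 3.22 and 3.38 in the 4 libraries, whereas TFRC to FTH1 is -6.15 in library 2 against -3.49 to -3.16 in the others.

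HMOX1 (ENSMMUG00000007221), the inducible enzyme that frees iron from haem, measured 18.6, 45.5, 21.2 and 24.1 CPM in libraries 1 to 4. Library 2 was high and the other 3 lay at 21.3 ± 2.75 CPM (SD, n = 3).

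Expression was called at 1 CPM or above in each of the 4 libraries. Of the 10 genes, 9 passed, against 52.9% of all rows of the table, and IREB2 missed it through its level in library 2. All 10 averaged 1 CPM or more, and 9 passed edgeR's filterByExpr, again with IREB2 as the exception.

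A library was called apart by Dixon's test, which compares its gap to the nearest other library with the whole range of the 4, at the 95% critical value. Library 2 was apart for 4 of the 10 genes, a share to read against 33.1% of the 12453 genes tested. It was the highest for FTH1 and FTL, as for 21.8% of all genes, and the lowest for ACO1 and NCOA4, as for 11.2%. On log2(CPM + 0.5) SLC11A2 and STEAP3 were also called lowest, where 21.5% of all genes were. None of the 10 had library 1, 3 or 4 apart, against 0.779% of all genes. Irrespective of a call, library 2 lay above the range of the other 3 for 3 of the 10 genes (43.8% of all genes) and below it for 7 (48.0%). The 4 calls among 10 genes are a share near that of the whole table.

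The size of the departures placed the members within the same distribution. Library 2 was 3.36 times the median of the others for FTH1 on CPM + 0.5, and 4.32% of the 12453 genes had a ratio at least as high. For FTL it was 3.61 times, reached by 3.07% of genes, and for HMOX1 2.12 times, reached by 17.4%. In the other direction the median of the others was 2.16 times library 2 for TFRC, 2.15 times for NCOA4 and 1.97 times for ACO1, and between 24.5% and 27.2% of genes were at least as low as these. For SLC11A2 it was 3.19 times, with 15.1% of genes as low, and for STEAP3 3.89 times, with 11.6%. IREB2 stood near the end of the distribution, where 0.128% of genes were as low. The ribosomal protein share was higher in library 2, where 3 of the 10 genes were higher and 7 lower, and its part in these levels was not tested.

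**Figure D3:**
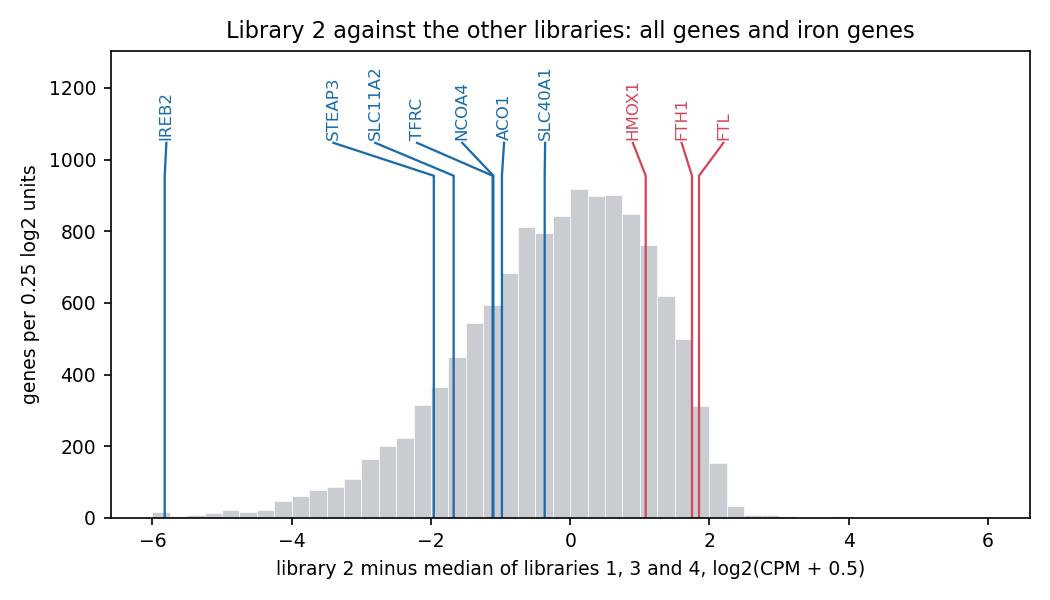
Grey bars count the 12453 genes tested by the difference between library 2 and the median of libraries 1, 3 and 4 in log2(CPM + 0.5), with values beyond 6 put in the end bars. Lines mark the 10 iron genes, in red where library 2 was higher and in blue where it was lower. FTH1 (1.75) and FTL (1.85) lie on the right flank and IREB2 (-5.82) far to the left.

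Among libraries 1, 3 and 4 the spread of the set was close to that of the table. The median coefficient of variation over libraries 1, 3 and 4 was 9.69% for the 10 genes and 8.85% for all 12453 genes. NCOA4 (2.39%), ACO1 (2.42%) and FTH1 (3.23%) varied least, and 88.8% to 93.4% of genes varied at least as much. SLC40A1 (13.1%), HMOX1 (12.9%), STEAP3 (12.7%) and SLC11A2 (10.5%) varied more, with FTL (8.91%) and TFRC (8.02%) between.

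Genes whose 4-library pattern was most like that of FTH1 were sought among 7439 named genes averaging 10 CPM or more, by the largest difference in centred log2(CPM + 0.5). RPL30, a ribosomal protein of the large subunit, differed by at most 0.018 log2 units, MPST, a sulphur transferase, by 0.024 and GPS1, a subunit of the COP9 signalosome, by 0.032. RPL30 measured 735, 2493, 708 and 759 CPM in libraries 1 to 4. FTL came at place 76, with 0.092 log2 units. With 4 libraries, of which 1 stands apart, such a pattern is mostly the size of the step in library 2.

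The other genes of the pathway were taken from a list of 61 iron genes, which includes the 10 and of which 54 had a row. Of these, 41 were expressed in every library and 7 were below 1 CPM in every library, including 2 with no count. Among the 45 that averaged 1 CPM or more, library 2 was apart as the highest for 12 and as the lowest for 5, and no other library was apart. The shares for all genes were 21.8% and 11.2%. With plain CPM the counts were 6 and 5, beside 11.5% and 16.7% of all genes. Library 2 lay above the range of the others for 25 of the 45 and below it for 18 (43.8% and 48.0% of all genes). With plain CPM these were 17 and 22 (31.6% and 59.7% of all genes), and 9 genes turned from the higher to the lower side, while DESeq2 scaling turned none.

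Of 8 uptake genes tested, library 2 lay below the range of the others for 6 and above it for 2, beside 48.0% and 43.8% of all genes, and none passed Dixon's test. With plain CPM 1 was above, since SLC39A8, a carrier of zinc and iron named after its values were seen, turned from 0.34 to -0.09 log2 units. LRP1, a large endocytic receptor that also takes up haem bound to haemopexin, measured 625, 377, 490 and 522 CPM. SLC39A14, a carrier of iron not bound to transferrin, measured 91.4, 52.8, 102 and 82.7 CPM. TFR2, the second transferrin receptor, had no count, and both TF, which encodes transferrin itself, and the reductase STEAP4 stayed below 1 CPM in every library.

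Among the 7 iron-regulation genes tested, library 2 lay below the others for 6, beside 48.0% of all genes. It was apart as the lowest for 3, namely ACO1, HIF1A and NEO1, beside 11.2% of all genes. With plain CPM it was also 3, beside 16.7%. HIF1A, the oxygen-regulated transcription factor subunit, measured 409, 52.3, 428 and 391 CPM. NEO1, a receptor that takes part in hepcidin control in liver, measured 345, 113, 349 and 323 CPM, and EPAS1, which encodes the related HIF-2 alpha, measured 766, 326, 789 and 685 CPM. FBXL5, the ubiquitin ligase subunit that marks IREB2 for degradation when iron is ample, was above the others in library 2 with TMM scaling, at 101 CPM against 81.9 to 85.8 CPM, but below them with plain CPM, and its difference turned from 0.27 to -0.18 log2 units. It was named after its values were seen. HAMP, which encodes hepcidin, and its regulators HJV and TMPRSS6 were below 1 CPM in every library.

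In the storage and release group the iron chaperones PCBP1 and PCBP2, which hand iron to ferritin, were also measured. PCBP2 measured 454, 698, 488 and 507 CPM, with library 2 highest but not apart by Dixon's test. Among 6 export genes library 2 was above the others for 2, below for 3 and within their range for 1, and none passed the test. Of all genes, 43.8% were above and 48.0% below. With plain CPM 0 export genes were above and 3 below, beside 31.6% and 59.7% of all genes. FLVCR1, linked to haem export and choline transport, had 1 count in library 2, or 0.0617 CPM, against 8.82 to 11.97 CPM in the others. ABCG2, a transporter that can carry porphyrins and haem, measured 10.01, 3.33, 8.45 and 7.6 CPM.

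Of 6 haem synthesis genes tested, library 2 was apart as the highest for 4 (2 with plain CPM) and as the lowest for 1, beside 21.8% and 11.2% of all genes. ALAS1, the first enzyme of the pathway outside red cell precursors, measured 48.0 CPM in library 1, 71.3 CPM in library 2, 50.0 CPM in library 3 and 50.4 CPM in library 4. UROD, which decarboxylates uroporphyrinogen, measured 36.4, 90.8, 35.2 and 36.0 CPM, and UROS, the enzyme before it, 31.0, 72.2, 36.7 and 32.7 CPM. The low one was FECH, which inserts iron into protoporphyrin, at 7.92, 2.1, 7.91 and 8.05 CPM, and it was named after its values were seen.

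All 4 haem breakdown genes were above the others in library 2 under TMM, plain CPM and DESeq2 scaling. Of all genes, 43.8% were above with TMM and 31.6% with plain CPM. Dixon's test was passed by 3 of the 4, beside 21.8% of all genes called highest, and by 1 with plain CPM, beside 11.5%. BLVRA, which reduces biliverdin, measured 33.2, 90.7, 31.9 and 31.9 CPM, the second biliverdin reductase BLVRB 30.3, 81.0, 23.6 and 28.9 CPM, and the constitutive oxygenase HMOX2 22.6, 43.7, 22.1 and 25.6 CPM. HMOX1 did not pass.

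Of the 9 genes of mitochondrial iron and iron-sulphur cluster assembly tested, library 2 was above the others for 7, beside 43.8% of all genes. With plain CPM it was above for 5, beside 31.6%. It was apart as the highest for 3, beside 21.8% of all genes, and with plain CPM for 1, beside 11.5%. NFS1, which supplies sulphur to the clusters, measured 40.0, 76.0, 33.8 and 40.1 CPM. HSPA9, a mitochondrial chaperone, measured 929, 1142, 972 and 935 CPM, with library 2 above the others under TMM but below them under plain CPM, and ABCB10, a transporter of the inner membrane, 44.4, 33.8, 46.6 and 49.02 CPM.

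The medians of the subgroups summarise this. The difference between library 2 and the median of the others, in log2(CPM + 0.5), was -0.95 for uptake, -1.60 for regulation, -0.04 for export, 0.52 for storage and release, 0.47 for the mitochondrial genes, 0.82 for haem synthesis and 1.28 for haem breakdown. It was -0.07 for all genes tested. With plain CPM the median of all genes was -0.49, and the subgroup medians moved down with it, to -1.39 for uptake and 0.84 for haem breakdown, while the mitochondrial genes (0.04) and storage and release (0.07) came close to 0. These are descriptions of 1 library against 3, with no test.

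**Figure D4:**
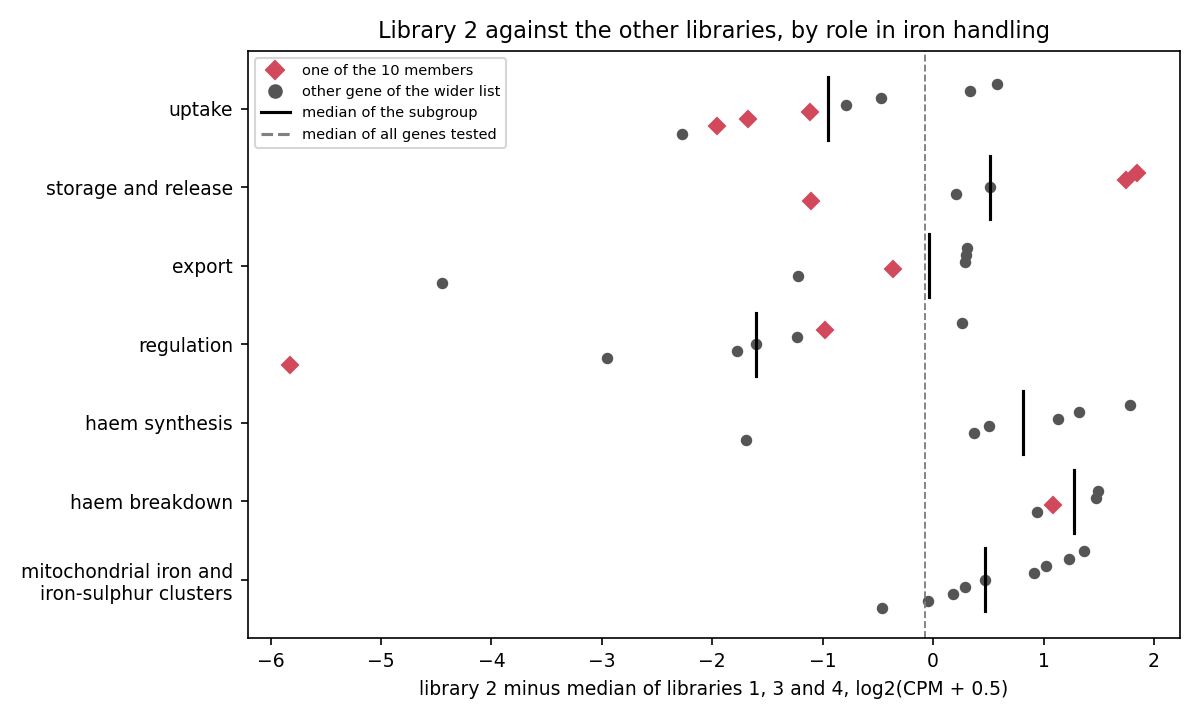
Each point is a gene of the wider iron list that averaged 1 CPM or more, placed by library 2 minus the median of libraries 1, 3 and 4 in log2(CPM + 0.5), with diamonds for the 10 genes described above. Black bars are subgroup medians, from -1.60 for regulation to 1.28 for haem breakdown, and the dashed line is the median of all genes, -0.07.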

How the data were processed

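Total RNA of 4 RF/6A libraries was sequenced on a BGISEQ-500, per the labels' protocols. The authors deposited whole-number estimated counts per Ensembl rhesus gene, not scaled or divided by length. Salmon and DESeq2 are named without versions or roles in the submitters' processing notes, and no genome build, annotation or strandedness is given in the sources used here. Symbols came from a table of Ensembl identifiers, which named 14654 of 21314 rows. Counts were scaled by TMM in edgeR 4.0.16 under R 4.3.3, with plain CPM and DESeq2 1.42.0 size factors as alternatives. Log values used a pseudocount of 0.5. A count of 3, the limit that a count of 0 allows, was 0.146 to 0.147 CPM of plain counts. Dixon's test (95% critical value) was run on the 12453 genes averaging 1 CPM or more, and about 1 in 20 groups is called by chance. No pair of libraries was a copy: over genes with 20 counts or more in a pair, the chi-square statistic divided by its degrees of freedom lay between 12.3 and 19.3 for pairs lacking library 2, and pairs holding it gave 418 to 495.

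On simulated counts of 12445 genes, with 100 genes higher and 100 lower in library 2 by 4-fold, the test called 96% of the higher and 19% of the lower genes, and 5.51% of unchanged genes. On CPM it therefore calls low libraries less often than high ones. No test between groups was possible with 1 group. The order of levels per coding length was not computed, since no transcript length was used. A few listed genes are not reported here. The members and lists were chosen with earlier results of these data known. The rule named all 10 members, the 3 highest genes by CPM of each subgroup, those with no count, up to 3 per subgroup below 1 CPM in every library, and the 3 genes most like FTH1 in pattern.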

Additional observations from a re-analysis of the deposited data

Results flagged for a closer look

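Dixon's test was applied to 56 values, which were 45 iron genes, 3 ratios, the ferritin and ribosomal protein shares and 6 marker sums, and in 21 of them 1 library lay apart from the other 3. By chance about 1 in 20 would be, and over the 12453 genes tested library 2 was apart for 33.1%. Every one of the 21 concerned library 2, which was high in 15 and low in 6, so the values are not independent of each other.

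Among the 10 members, library 2 was high for FTH1 (21609 CPM) and FTL (2315 CPM) and low for ACO1 (40.7 CPM) and NCOA4 (79.5 CPM). It was also low for the TFRC to FTH1 log2 ratio (-6.15) and high for the share of counts in ferritin (1.898%).

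In the wider list library 2 was low for NEO1 (113 CPM), HIF1A (52.3 CPM) and FECH (2.1 CPM). It was high for the haem synthesis genes ALAS1 (71.3 CPM), UROS (72.2 CPM), UROD (90.8 CPM) and PPOX (33.4 CPM). The haem breakdown genes HMOX2 (43.7 CPM), BLVRA (90.7 CPM) and BLVRB (81.0 CPM) were high there as well. So were ISCU (69.1 CPM), NFS1 (76.0 CPM) and HSCB (54.04 CPM), which act in iron-sulphur cluster assembly.

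The ribosomal protein share (16.1%) and the summed hepatocyte markers (2.16 CPM, against 0.904 to 0.943 CPM) were high in library 2 too. That marker sum was low and mostly ALB, at 1.67 CPM in library 2 against 0.682 to 0.859 CPM. TF of the same list had no count in library 2.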

How the results depend on the processing

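No paired analysis was possible because the series has 1 group. Plain CPM, DESeq2 size factors and leaving out each library kept all 10 member means within 1 SD of the 4-library value, an SD that includes library 2. The direction of library 2 against the others was the same for all 10 genes under TMM, plain CPM and DESeq2 scaling, from 1.31 to 1.76 log2 units for FTH1 and from -1.56 to -1.10 for TFRC. On log2(CPM + 0.5), chosen after seeing the data for single genes, SLC11A2 (-1.67) and STEAP3 (-1.96) were also called apart, giving 6 genes in place of 4. Between 8 (plain CPM) and 10 (without library 2, or by mean) members were expressed, and 40 to 45 of the wider list. With plain CPM library 2 was highest for 11.5% of all genes and lowest for 16.7%, against 21.8% and 11.2%. In the wider list it was highest for 6 genes in place of 12, and 9 of 45 turned direction. Leaving out 1 library at a time, the FTH1 to FTL log2 ratio ranged from 3.26 to 3.31, TFRC to FTH1 from -4.31 to -3.31 and IREB2 to ACO1 from -3.74 to -1.51, where the last 2 upper values lack library 2. The ferritin share ranged from 0.769% (without library 2) to 1.153%, and was 1.185% without ribosomal protein genes. Dixon's test was not run on 3 libraries. Adding other ferritin-named rows was not run, since there were 0. The 3 IREB2 counts in library 2 limit any ratio with it.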
